A study of Mus musculus with 6 samples.

Results

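The receptors for interleukin-5 (IL-5), interleukin-3 (IL-3) and granulocyte-macrophage colony-stimulating factor (GM-CSF) were read in peritoneal cavity (PC) B1a cells from 7 probes for 5 genes, Il5ra, Il3ra, Csf2ra, Csf2rb and Csf2rb2. The members were all the non-control probes that the array files assign to these genes, 7 of the 55681 probes on the array and 5 of its 36163 gene names. B1a cells had been sorted by flow cytometry, with CD11b and CD5 among the markers, from 7-week-old female C57Bl/6 mice and profiled on 6 one-colour arrays. The 3 knockout samples came from p40-/-CD25-/- mice, which lack IL-2Rα (CD25) and develop autoimmune cholangitis. The 3 control samples came from p40-/-CD25+/- littermates, which keep 1 working copy. The p40 subunit of IL-12 and IL-23 was deleted in both groups, so that no sample had an intact p40 gene. Per the series' design each sample took a minimum of 3 mice, and the labels do not tie a sample to its mice, so p-values measure the spread between these samples only. In sorted bulk RNA, fewer cells carrying a transcript and less of it per cell cannot be told apart.

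IL-5, IL-3 and GM-CSF each bind a private alpha chain, encoded by Il5ra, Il3ra and Csf2ra, which pairs with a shared signalling subunit, the common beta chain encoded by Csf2rb. Mice carry in addition a close relative of the common beta chain, encoded by Csf2rb2, that serves IL-3 alone. Ligand binding activates JAK2 bound to the beta chain, then STAT5, and STAT5 targets such as Cish feed back on the signal. B1 cells are known for constitutive IL-5Rα on their surface and depend on IL-5 for their upkeep, and IL-3 and GM-CSF are better known from eosinophils, mast cells, basophils and macrophages.

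The first 30 bases of the alpha chain probes are shown to fix what was read for each private chain, in lower case as the array files list them, 5′ to 3′. The Il5ra probe lies at chr6:106660378-106660437 on the minus strand, the Il3ra probe at chr14:15187898-15187957 on the plus strand and the Csf2ra probe at chr19:61300336-61300395 on the minus strand, all in mm9 as the files give them.
Il5ra: gcaggaacaacaatatgaactacccagcaa
Il3ra: agctcttgaagactgcgaggtgacgcctgt
Csf2ra: tcataaaatccaacgtgccttcatgatcaa

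The beta chain genes are near relatives on chromosome 15, with no other gene listed between them in RefSeq (GRCm38.p6). Each had a brighter and a dimmer probe. The brighter Csf2rb probe lies at chr15:78181168-78181227 and the dimmer at chr15:78179504-78179563, both on the plus strand, with starts 1664 bases apart. The brighter Csf2rb2 probe lies at chr15:78113126-78113185 and the dimmer at chr15:78114097-78114156, both on the minus strand, with starts 971 bases apart. The stretches in which the brighter probes are most alike are shown because reads of one gene could come from the other. Capitals mark the 3 positions at which these 30-base stretches differ, so that 27 of 30 bases are identical.
Csf2rb: ggcagatcaaAtgtCccttggtctCtgttc
Csf2rb2: ggcagatcaaGtgtTccttggtctAtgttc
The longest unbroken run they share is 10 bases. In the 20 other pairings of the 7 probes, the best 30-base alignment had at most 16 identical bases. How much each brighter probe takes up of the other gene's transcript was not tested.

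All 7 probes were well above background on all 6 arrays, so the probes of each receptor gene gave a signal in the sorted cells of both genotypes. No member passed a threshold. The IL-3-specific beta chain Csf2rb2 and the IL-3 receptor alpha chain Il3ra had the largest differences among the 5 genes, lower in the knockout by 1.48-fold and 1.41-fold, and on these probes no knockout array reached a control array. Il5ra, Csf2ra and the common beta chain Csf2rb were lower by 1.09-fold, 1.13-fold and 1.17-fold. Values below are log2 signals relative to the 75th percentile of the same array. Differences are knockout minus control with the standard error (SE) from limma, except for within-array differences between members. Adjusted p-values are Benjamini-Hochberg values over all 24762 tested probes. Levels of different probes are not compared, since probes bind with different strength.

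**Figure D1:**
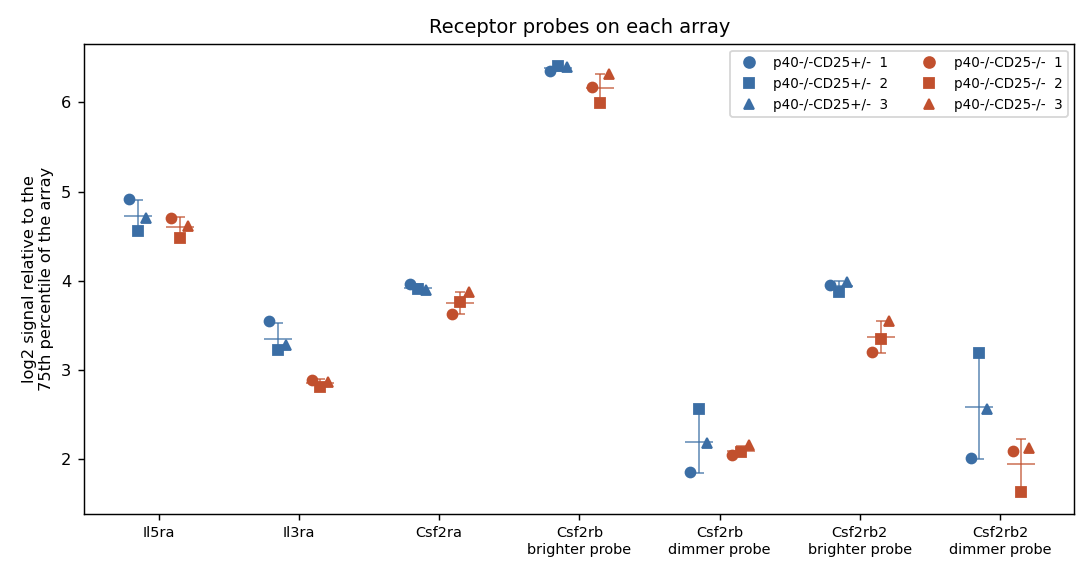
Log2 signal of the 7 receptor probes relative to the 75th percentile of each array, one symbol per array (p40-/-CD25+/- control in blue, p40-/-CD25-/- knockout in red), with horizontal bars for the group mean and whiskers for 1 SD. Knockout arrays sit below all control arrays for Il3ra (2.81 to 2.89 against 3.22 to 3.55) and for the brighter Csf2rb2 probe (3.20 to 3.55 against 3.87 to 3.98), and the groups overlap for Il5ra; heights of different probes are not comparable.

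Il5ra, the chain that gives IL-5 its specificity, measured 4.91, 4.55 and 4.70 in control 1 to 3 and 4.71, 4.47 and 4.62 in knockout 1 to 3. The groups overlapped, with knockout 1 above control 2 and 3. The difference was -0.12 (SE 0.160, limma adjusted p = 0.625), and its 95% interval ran from -0.50 to 0.25, which holds no difference and does not reach a 2-fold change.

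Il3ra, the chain specific for IL-3, measured 3.55, 3.22 and 3.28 in the controls and 2.89, 2.81 and 2.86 in the knockouts. The knockouts lay close together (SD 0.040, n = 3) and all below the controls (SD 0.173, n = 3). The difference was -0.50 (SE 0.151, 95% interval -0.85 to -0.14, limma adjusted p = 0.132), so it did not pass.

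Csf2ra, the chain specific for GM-CSF, measured 3.96, 3.91 and 3.89 in the controls and 3.62, 3.76 and 3.87 in the knockouts. Knockout 3 came within 0.03 of the lowest control, so the groups were only just apart. The difference was -0.17 (SE 0.142, 95% interval -0.50 to 0.16, limma adjusted p = 0.440).

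Csf2rb, the common beta chain, measured 6.35, 6.41 and 6.40 in the controls and 6.18, 5.99 and 6.32 in the knockouts on its brighter probe. Knockout 3 again lay just below the controls, and knockout 2 was lowest. The difference was -0.23 (SE 0.149, 95% interval -0.57 to 0.12, limma adjusted p = 0.350). On the dimmer probe the controls, at 1.85, 2.56 and 2.18, enclosed the knockouts, at 2.04, 2.07 and 2.15, with a difference of -0.10 (SE 0.201, limma adjusted p = 0.751).

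Csf2rb2, the beta chain that serves IL-3 alone, measured 3.95, 3.87 and 3.98 in the controls and 3.20, 3.35 and 3.55 in the knockouts on its brighter probe. All knockouts lay below all controls (SD 0.056 in the controls and 0.176 in the knockouts, n = 3 each). The difference was -0.57 (SE 0.153, 95% interval -0.93 to -0.21, limma adjusted p = 0.119) and did not pass. The dimmer probe gave a difference of the same sign, -0.64, with a wider error (SE 0.307, 95% interval -1.36 to 0.08, limma adjusted p = 0.236). Its controls spread from 2.01 to 3.19 and its knockouts from 1.62 to 2.12, and the groups overlapped through control 1.

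Over the 7 probes, all averages were lower in the knockout, beside 57.6% of all tested probes. In 4 of 7 the knockouts lay wholly below the controls, beside 19.5% of all tested probes. Those for Il3ra and the brighter Csf2rb2 probe, 2 of 7, were lower at a limma p within 0.05 before adjustment, beside 12% of all tested probes. None of the 7 met the rule of the study, a change of 2-fold or more at a p within 0.05 before adjustment (the 2-fold rule below), beside 3.63% of all tested probes. None had an adjusted p below 0.05 with limma, beside 0.0808% of all tested probes, and the plain test that the methods name also gave none after adjustment and 2 before it. The median difference was -0.23 over the 7 probes and -0.09 over all tested probes.

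The arrays of the knockout were dimmer as a whole, and this moved with the genotype. The 75th percentile of the processed signal was 263.5, 252.3 and 271.8 for control 1 to 3 but 130.9, 66.51 and 161.7 for knockout 1 to 3, and 47.23% to 50.55% of control spots against 39.74% to 45.85% of knockout spots were well above background. Before scaling, the brighter Csf2rb2 probe read 4081, 3696 and 4290 in the controls and 1203, 678.2 and 1895 in the knockouts, and the Il5ra probe read 7933, 5920 and 7070 against 3417, 1477 and 3964. The differences of all members therefore rest on how the arrays are scaled. Il3ra, the brighter Csf2rb probe and both Csf2rb2 probes were lower under each of the 7 scalings tried, Csf2rb2 between -0.85 and -0.38 on its brighter probe and Il3ra between -0.75 and -0.27. Il5ra turned to 0.06 and Csf2ra to 0.02 with quantile normalization, and the dimmer Csf2rb probe to 0.05. With another background correction (normexp) and the 75th percentile, Il3ra (adjusted p = 0.0123), both Csf2rb2 probes (0.00867 and 0.0165) and the brighter Csf2rb probe (0.0415) passed in limma, as did 9339 of 24762 probes in all. The part of overall brightness in these differences was not tested.

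**Figure D2:**
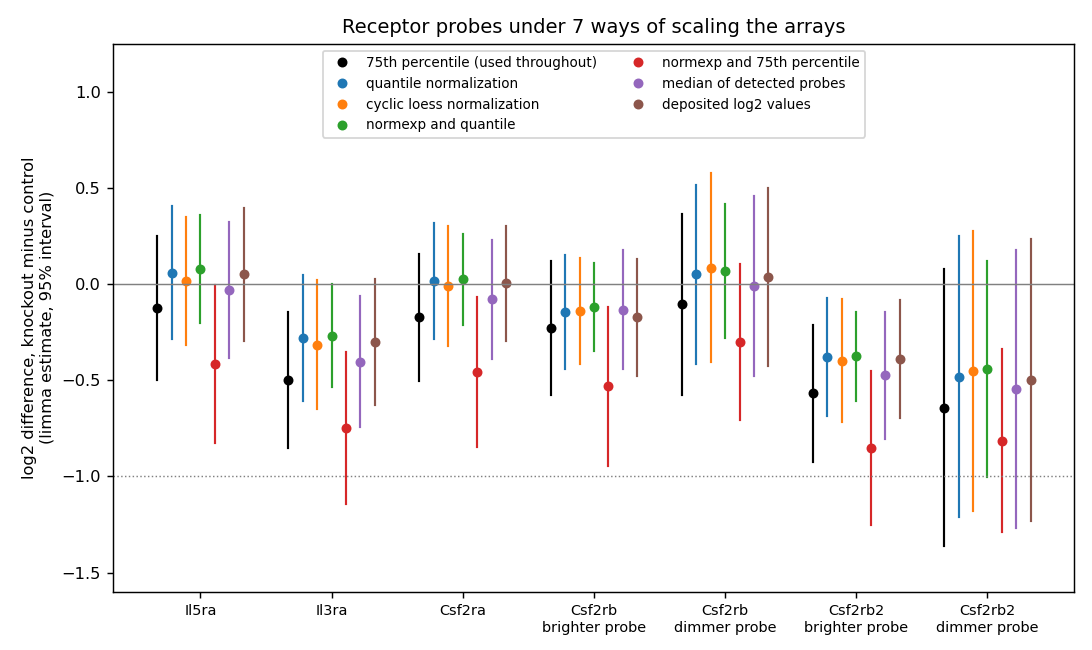
Log2 difference of knockout minus control for each receptor probe under 7 scalings of the same 6 arrays; points are limma estimates, lines are 95% intervals, the solid line marks no difference and the dotted line a 2-fold lower level. Csf2rb2 and Il3ra points stay below 0 throughout, whereas Il5ra lies on both sides, from -0.41 to 0.08.

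Differences between members within an array do not change with the scaling factor of that array, and asked whether the receptor chains differed unequally. For each of the 10 pairs of member genes, each by its brighter probe, the log2 difference on each array was compared between the genotypes by an exact two-sided permutation test, in which 3 against 3 arrays cannot give a p below 0.1. In 5 of 10 pairs the genotypes did not overlap, and these reached that smallest p (0.2 after Benjamini-Hochberg adjustment over the pairs), so that none passed. The SE of a pair comes from the variances within the 3 control and 3 knockout arrays alone. It is not from limma and is not comparable with the SE of a single probe.

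Each of the 5 pairs held Csf2rb2 or Il3ra on one side and another chain on the other. Csf2ra minus Csf2rb2 was 0.01, 0.04 and -0.09 in the controls and 0.42, 0.41 and 0.32 in the knockouts, a gap between the genotypes of 0.40 (SE 0.050), or 1.32-fold. Csf2rb minus Csf2rb2, the common beta chain against its IL-3-specific relative, was 2.40, 2.54 and 2.42 in the controls and 2.98, 2.64 and 2.76 in the knockouts, a gap of 0.34 (SE 0.108). In both pairs every knockout array was above every control array, so the Csf2rb2 signal was lower in relation to these chains than in the controls.

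Il5ra minus Csf2rb2 was higher in the knockouts by 0.44 (SE 0.164). Il5ra minus Il3ra was 1.37, 1.33 and 1.42 in the controls and 1.82, 1.67 and 1.76 in the knockouts, a gap of 0.37 (SE 0.053) or 1.30-fold. For Il3ra minus Csf2ra the knockout minus control difference was -0.32 (SE 0.115). For Il3ra minus Csf2rb, the common beta chain, it was -0.27 (SE 0.141) with overlapping groups and an exact permutation p = 0.2.

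The IL-3 chains set against each other overlapped between the genotypes. Il3ra minus Csf2rb2 was -0.41, -0.65 and -0.70 in the controls and -0.31, -0.54 and -0.69 in the knockouts, a gap of 0.07 (SE 0.143, exact permutation p = 0.6). Il5ra, Csf2ra and Csf2rb set against one another gave 0.05 to 0.10, with overlapping groups in all 3 pairs and an exact permutation p = 0.7 in each. The grouping of Il3ra with Csf2rb2 was seen in the values and is a description.

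**Figure D3:**
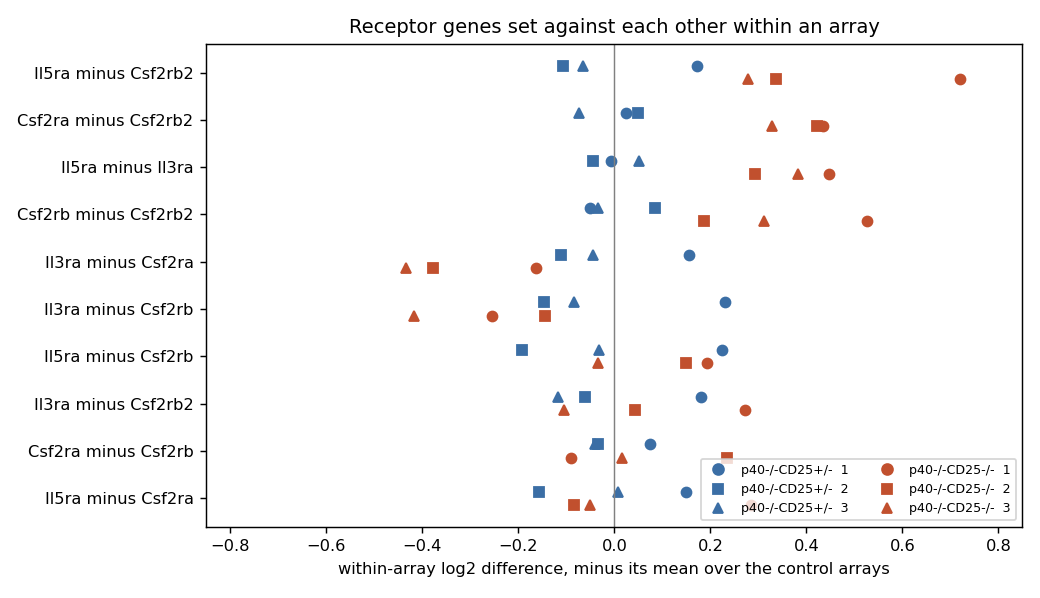
Log2 difference between member genes on the same array, centred on its mean over the control arrays (x axis), for the 10 pairs ordered by the size of the difference between genotypes; symbols are arrays, control in blue and knockout in red. Knockout arrays stand apart from the controls in the top 5 pairs, each with Csf2rb2 or Il3ra on one side only, and mix with them in the other 5.

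The 250 bases before the gene start are given for Il3ra and Csf2rb2, the chains with the larger differences, from RefSeq (GRCm38.p6), 5′ to 3′ on the strand of the gene. The Il3ra stretch is chr14:14346245-14346494 on the plus strand and the Csf2rb2 stretch chr15:78305722-78305971 on the minus strand. Capitals mark matches to 4 motifs searched on both strands, the STAT core TTCNNNGAA, the octamer ATGCAAAT, the PU.1 core GAGGAA and the E-box CACGTG.
Il3ra: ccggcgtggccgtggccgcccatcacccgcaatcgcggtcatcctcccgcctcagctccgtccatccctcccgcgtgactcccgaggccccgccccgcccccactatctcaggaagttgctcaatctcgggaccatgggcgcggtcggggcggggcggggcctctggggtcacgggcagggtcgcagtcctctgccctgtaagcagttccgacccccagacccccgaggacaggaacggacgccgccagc
Csf2rb2: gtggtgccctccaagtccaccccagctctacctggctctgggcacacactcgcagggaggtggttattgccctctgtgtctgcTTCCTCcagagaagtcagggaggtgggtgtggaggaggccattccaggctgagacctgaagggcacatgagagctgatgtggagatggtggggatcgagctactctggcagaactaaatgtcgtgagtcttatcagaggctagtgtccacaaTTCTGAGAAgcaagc
The Csf2rb2 stretch held 1 STAT core, present in 7.02% of the 32851 promoters of this length, and 1 PU.1 core, present in 23.3%, which did not overlap each other. The Il3ra stretch held none of the 4 motifs, and the letters of the octamer (1.6% of promoters) and the E-box (6.02%) were in neither. The Il3ra stretch was rich in G and C (72.4%) beside 56.4% for Csf2rb2 and a median of 52.4% over all promoters. Among the other members with a sequence, Csf2ra held 2 PU.1 cores and Il5ra none of the motifs. A match gives only that these letters occur, and whether a factor binds there was not measured.

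The ligands were not detected in these cells. Il5, Il3 and Csf2, which encode IL-5, IL-3 and GM-CSF, had 1 probe each, well above background on none of the 6 arrays, so no difference was computed. The other genes of the pathway were read from lists of 74 genes, of which 64 were tested, each by its brightest tested probe. Of these, 3 were lower and 1 higher by the 2-fold rule, beside 1.28% and 2.26% of all tested genes. The 3 include Il2ra, the gene deleted in the knockout, and Cebpa, one of 5 pathway genes that entered the test through the controls alone (with Gab2, Sdc1, Spred1 and Spred2). Without these 6, 1 of 58 genes was lower and 1 higher by the 2-fold rule. None of the 64 had an adjusted p below 0.05 in limma, beside 0.0657% of all tested genes. Before adjustment, 10 were lower and 6 higher at a p within 0.05, beside 13% and 11.5% of all tested genes. The median difference was -0.21 over the 64 genes and -0.12 over all tested genes.

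Of 27 signalling genes tested, 24 were lower on average, as were 60.2% of all tested genes, and none passed. Jak2, the kinase bound to the beta chain, measured 3.92, 3.91 and 4.08 in the controls and 3.38, 3.88 and 4.12 in the knockouts, a difference of -0.18 (SE 0.210, limma adjusted p = 0.588). Stat5b, one of the STAT5 genes, had all knockouts below all controls on both probes, with differences of -0.49 (SE 0.214, limma adjusted p = 0.211) and -0.36 (SE 0.181, adjusted p = 0.250), whereas Stat5a and Jak1 overlapped between the groups (differences of -0.24 and -0.04).

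Of 12 inhibitors tested, 7 were lower and 5 higher on average, and none passed. All knockouts lay below all controls in 0 of the 12, beside 21.6% of all tested genes, and above them in 3, beside 14.7%. These 3 were Socs3, Cbl (0.35) and Dusp6 (0.48), the last 2 named after their values were seen. Cish, a STAT5-induced inhibitor, measured 3.89, 3.73 and 3.62 in the controls and 2.67, 2.59 and 3.64 in the knockouts, a difference of -0.78 (SE 0.287, limma adjusted p = 0.166). Socs2, another inhibitor induced through STAT5, showed the same layout on its brightest probe, with 0.43, 0.18 and -0.12 in the controls, -1.07 and -1.12 in knockout 1 and 2, and 0.03 in knockout 3. In both genes knockout 1 and 2 were well below the controls and knockout 3 lay among them. The 3 Socs2 probes gave differences of -0.88, -0.92 and -0.96 (limma adjusted p from 0.169 to 0.181). Socs1 and Socs3, inhibitors of several cytokine receptors, differed by -0.21 and 0.16, with overlapping groups for Socs1 and every knockout above every control for Socs3.

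Of 17 targets tested, 14 were lower on average, beside the 60.2% of all tested genes, with a median difference of -0.34, and 2 were lower by the 2-fold rule. All knockouts lay below all controls in 5 of the 17, beside 21.6% of all tested genes, and above them in 2, beside 14.7%. Without the deleted gene Il2ra and without Sdc1, which entered through the controls alone, 12 of 15 were lower on average, 4 lay wholly below the controls, 1 was lower by the 2-fold rule and the median was -0.33. Igj, which encodes the joining chain of secreted IgM and IgA, measured 2.91, 2.29 and 2.48 in the controls and 0.42, -0.55 and 2.04 in the knockouts, a difference of -1.92 (SE 0.589, limma adjusted p = 0.133). Il2ra, the gene deleted in the knockout and also a STAT5 target, measured 1.62, 1.13 and 1.35 in the controls and -0.31, -0.59 and 0.86 in the knockouts, a difference of -1.38 (SE 0.368, limma adjusted p = 0.119). Whether its only probe lies in the deleted stretch is not given in the sources used here, so its signal checks the genotype in part at most, and the library labelled knockout 3 was nearest to the controls. The cyclin gene Ccnd3 (-0.64), the repressor gene Bcl6 (-0.60) and Xbp1 (-0.52), a secretory cell factor, were the other 3 with all knockouts below all controls (limma adjusted p from 0.133 to 0.157), named after their values were seen. The 2 targets with every knockout above every control were Pim1, a STAT5-induced kinase, with 0.51 (SE 0.177, limma adjusted p = 0.155), and Id2. Id2, named after its values were seen, differed by 0.86 (SE 0.279, limma adjusted p = 0.141). Bcl2 and Ccnd2, a survival gene and a cyclin, overlapped between the groups with 0.11 and -0.36.

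Of 8 regulators tested, Bhlhe40, a transcription factor close to the B1a factor Bhlhe41, was higher by the 2-fold rule, at -0.58, -1.37 and -0.53 in the controls and 0.70, 0.33 and 0.50 in the knockouts (difference 1.34, SE 0.253, limma adjusted p = 0.0891). Bhlhe41 itself differed by 0.55 (SE 0.204) and 0.42 (SE 0.139) on its probes, with all knockouts above all controls on both (limma adjusted p = 0.170 and 0.147). Cebpa, a myeloid factor, met the 2-fold rule downward (limma adjusted p = 0.182), but it entered the test through the controls alone, since no knockout array was well above background. Its values overlapped, at -3.01, -2.93 and -3.84 in the controls and -5.47, -3.32 and -5.70 in the knockouts, so no fold is given. Pou2f2, which encodes the octamer-binding factor Oct-2 known to control Il5ra in B cells, overlapped between the groups on both probes (-0.03 and -0.17).

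Cells that carry these receptors at high levels could be among the sorted cells, so their markers were read on each array. Well above background on all 6 arrays were 7 of 7 B cell markers and 10 of 10 B1a cell markers, Cd5 and Itgam (CD11b) among them, but also 5 of 6 markers of B2 cells and 14 of 18 of macrophages, so detection alone does not set B1a cells apart. Of the 10 B1a markers, Cd9, Ctla4 and Tppp3 had all knockouts below all controls, beside 21.6% of all tested genes. Bhlhe41 and Itgam had them above, beside 14.7%, and the others overlapped. Sums over a list are on the linear scale, in units of each array's 75th percentile.

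Of 9 eosinophil genes, only Alox15 stood well above background in all 6 samples, and Epx, Prg2 and Prg3, the granule protein genes, did so in none. The 9 summed to 1.096 to 2.28 in the controls and 0.58 to 1.73 in the knockouts. Of 10 mast cell and basophil genes, Hdc and Tpsb2 were above background on all 6 arrays and Mcpt8 and Ms4a2 on none, and the sum was 1.15 to 4.81 in the controls and 1.58 to 2.08 in the knockouts. Cpa3, a mast cell protease, was highest in control 1 (0.05 against -1.35 and -3.28 in the other controls and -2.92, -2.85 and -2.62 in the knockouts), and control 1 also had the highest Il3ra. Without control 1, the Il3ra difference was -0.40.

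Of 18 macrophage genes, 14 were above background on all arrays, and none of these had all knockouts on one side of all controls. The 18 summed to 109 to 181 in the controls and 97.7 to 147 in the knockouts, of which Icam2, a gene of lymphocytes too, made up 48.4% to 65.6%. Lyz2, a lysozyme gene, measured 2.56, 2.91 and 1.31 in the controls and 1.03, 1.46 and 1.05 in the knockouts, and Marco, a scavenger receptor, 2.48, 1.69 and 0.70 against 1.64, 4.31 and 1.68. On the brighter Csf2rb2 probe control 3, with the lowest Cpa3 and Lyz2 of the controls, measured 3.98 beside 3.95 and 3.87 in control 1 and 2, whereas on the dimmer probe control 2 was highest (3.19).

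Single genes carried most other sums. Neutrophil genes summed to 109 to 118 in the controls and 116 to 224 in the knockouts, with Csf3r at 98.4% or more, and T cell genes to 268 to 282 against 222 to 304, with Cd2 at 92.6% or more. Of the 8 T cell genes above background on all 6 arrays, 2 had every knockout above every control, beside 14.7% of all tested genes, and the others overlapped. These were Cd3e at 0.50, 0.26 and 0.51 against 0.75, 1.16 and 1.15 and Thy1 at -2.14, -3.29 and -3.75 against -1.57, -1.73 and 0.51. Cd3g, one of those that overlapped, measured 1.05, 0.75 and 0.61 against 0.78, 0.13 and 0.64. Dendritic cell genes summed to 63.0 to 68.3 against 73.1 to 128, with Siglech at 97% or more. Batf3, the other dendritic cell gene detected in all 6 samples, lay the other way, at 0.27, 0.74 and 0.70 against -1.97, -0.52 and -0.06. Plasma cell genes summed to 69.5 to 76.2 against 47.4 to 60.2, with Xbp1 at 49.4% to 61%. Of the 5 plasma cell genes above background on all 6 arrays, Xbp1 and Igj had every knockout below every control, beside 21.6% of all tested genes. Irf4, Prdm1 and Slamf7 overlapped. The dendritic and plasma cell lists were the ones whose sums did not overlap between the genotypes. B2 cell genes summed to 195 to 221 against 176 to 226. Apart from these values, the part of other cells in the receptor signals was not tested.

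The genes with the most similar course over the 6 arrays were taken from 9677 genes detected on all arrays, by the root mean square of the difference between mean-centred log2 values. For Il3ra these were Tulp4, Cdk2 and Lrrc25 (0.044 to 0.054, beside an own spread of 0.27), and for Csf2rb2 Nefh, Mcm6 and Txn2 (0.038 to 0.047, beside 0.30). Within 0.1 of Il3ra and Csf2rb2 lay 115 and 125 genes. Il5ra was nearest to Zfp523, Gstt2 and Zfp688, Csf2ra to Med11, Iqcc and Xrcc6 and Csf2rb to Rnf187, Prpf8 and Usp4, with 417, 514 and 1139 genes within 0.1 and own spreads of 0.14, 0.11 and 0.15. The order rests on 6 points a gene and is a description.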

How the data were processed

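RNA of sorted PC B1a cells was hybridized by the authors to 6 one-colour Agilent arrays, 3 per genotype on 1 slide, and read with Agilent Feature Extraction 10.7.1.1 (submitters' processing notes). The deposited spot intensity is that software's processed signal, background-subtracted and not scaled between arrays. The deposited log2 table holds 6 columns whose sorted values differ by at most 0.000545, as after quantile normalization, with scale otherwise not stated in the sources used here; it served as an alternative. Here, log2 intensity of 59305 non-control spots per array was taken minus the 75th percentile; 163 to 251 outlier spots per array were left out and spots of a probe averaged. No spot was saturated. Probes well above background on all 3 arrays of a genotype, with values on at least 2 arrays of each, were tested with limma 3.58.1 (R 4.3.3), without covariates, after a check on simulated data. The number of arrays limits precision. Control 1 and 2 lay in slide row 1, the other arrays in row 2.

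The named genes were all members, a set of pathway and marker genes, any pathway gene past a threshold and the 3 genes most similar to each member. The members and lists were chosen with earlier results of these data known. Gene names and mm9 coordinates are those of the array files; Hras, Syk and Spi1 were not found under those names. Alternatives covered background correction, scaling, filters, probe summary, test, array weights, replicate numbers as a block, each array left out, and slide row 2 alone (added after seeing the data).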

Additional observations from a re-analysis of the deposited data

How the results depend on the processing

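Il3ra, the brighter Csf2rb probe and both Csf2rb2 probes were lower in the knockout under every alternative run. Il5ra turned upward with quantile normalization (0.061), cyclic loess (0.017), normexp with quantile normalization (0.080) and the deposited log2 values (0.051), and Csf2ra under these except cyclic loess (0.017, 0.026 and 0.0042). The dimmer Csf2rb probe turned under all 4 (0.051, 0.085, 0.070 and 0.039) and without control 2 (0.077). With normexp and the 75th percentile, Il3ra (-0.75), the brighter Csf2rb probe (-0.53) and Csf2rb2 (-0.85, and -0.81 on the dimmer probe) passed an adjusted p of 0.05 in limma. Csf2rb2 passed with trend and robust estimation (-0.57, adjusted p = 0.0460), and with array weights Csf2rb2 (-0.66, adjusted p = 0.0257) and Il3ra (-0.44, adjusted p = 0.0494) passed. The cause was not tested. Over all alternatives the adjusted p of the brighter Csf2rb2 probe ranged from 0.00867 to 0.651 and that of Il3ra from 0.0123 to 0.651.

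With 1 array left out the difference ranged from -0.21 to -0.028 for Il5ra, -0.56 to -0.40 for Il3ra, -0.23 to -0.11 for Csf2ra, -0.30 to -0.14 for the brighter and -0.28 to 0.08 for the dimmer Csf2rb probe, and -0.66 to -0.48 for the brighter and -0.93 to -0.34 for the dimmer Csf2rb2 probe, and none passed. Within-array differences ranged from -0.068 to 0.12 for Il5ra minus Csf2ra (-0.028 without control 2, -0.068 without knockout 1), -0.031 to 0.16 for Il3ra minus Csf2rb2 (-0.031 without knockout 1) and -0.037 to 0.13 for Csf2ra minus Csf2rb (-0.037 without knockout 2), and the other 7 kept their sign. Of these, Il3ra minus Csf2rb went from -0.27 to -0.16 without control 1, and Il5ra minus Csf2rb from 0.10 to 0.21 without control 1, 0.0073 without control 2, 0.058 without knockout 1 and 0.17 without knockout 3.

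Of all tested probes, 20 passed the adjusted p and 899 the 2-fold rule. The adjusted count was 6 with quantile normalization and with the deposited values, 36 with cyclic loess, 55 with normexp and quantile normalization, 9339 with normexp and the 75th percentile, 8 with the median of detected probes, 2 without a filter, 96 with a filter on all 6 arrays, 7 with 1 probe per gene, 11 with probe means, 1 with the methods' t-test, 979 with trend and robust estimation, 4000 with array weights and 2 to 137 with 1 array left out (137 without knockout 3, 2 without control 2 or 3, 3 without control 1, 12 without knockout 1). The 2-fold count was 192 with normexp and quantile normalization, 233 with normexp and the 75th percentile, 18975 without a filter, where the median of all probes was 0.55, 593 with the filter on all 6 arrays and 853 to 1583 with 1 array left out, 1583 without knockout 3. Of the 2-fold calls, 65.5% were higher, against 44.4% with quantile normalization, 53.5% with cyclic loess, 81.2% with normexp and quantile normalization, 78.9% with the median of detected probes and 43.2% with the deposited values. Of the pathway genes, 4 passed the 2-fold rule, against 2 with normexp and quantile normalization and with the methods' t-test, 7 without a filter and 3 to 6 with 1 array left out.

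Deviations of same-numbered samples from their group means correlated at 0.175, 0.0574 and 0.120 over probes. Those of differently numbered samples correlated lower, at -0.177 to 0.041. Because the same-numbered values were not all above 0.1, the numbers were not taken to pair the samples, but these values do not show that the samples were unpaired. With the replicate block, the adjusted count was 1, and no member passed (Csf2rb2 -0.57, adjusted p = 0.129). In slide row 2 alone, 1 control against 3 knockouts with the control assumed to vary like the knockouts, the difference was -0.61 for Csf2rb2 and -0.43 for Il3ra; 0 probes passed the adjusted p in limma, 1335 the 2-fold rule and 2 pathway genes the 2-fold rule.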

Other observations

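Csf3r, the receptor for granulocyte colony-stimulating factor and best known from myeloid cells, lay well above background in each of the 6 samples, at 6.80, 6.87 and 6.76 in the controls and 7.16, 7.79 and 6.84 in the knockouts (difference 0.46, SE 0.245, limma adjusted p = 0.276). Of the other 8 neutrophil genes, Camp and Elane were above background on all 6 arrays and Ltf and Cxcr2 on none; Camp measured -2.77, -2.96 and -3.03 in the controls and -1.82, -1.08 and -2.49 in the knockouts. Csf3r was singled out after its values were seen.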
